A study of Mus musculus with 30 samples.

Results

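The clustered protocadherins are cell-surface proteins of the cadherin family whose genes stand in 3 neighbouring clusters, Pcdha, Pcdhb and Pcdhg, on mouse chromosome 18. They were taken from the count table by symbol, as protein-coding genes whose name begins with Pcdha, Pcdhb or Pcdhg followed by an isoform label. This gave 57 of the 49315 genes of the table, with 14 in Pcdha, 22 in Pcdhb and 21 in Pcdhg. A further row, Pcdhgb8, is annotated as a polymorphic pseudogene and was left out. The symbol Pcdha11 belongs to 2 members, which are told apart here by their Ensembl identifiers, ENSMUSG00000007440 and ENSMUSG00000102206. RefSeq names the gene at the position of the former Pcdha10, so the values given here for that Pcdha11 may belong to the isoform known elsewhere as Pcdha10.

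RNA was measured in whole hippocampi of 30 mice on the C57BL/6J background by poly(A)-selected RNA-seq. The TIMP2 KO group held 13 mice, 7 female and 6 male, and the WT group of littermate controls held 17 mice, 7 female and 10 male. TIMP2 is a secreted inhibitor of matrix metalloproteinases, and the KO mice, from the Jackson Laboratory, carried the mutation in every cell from conception, so that their hippocampi also developed under it. No mouse is labelled as treated, and the study used mice of 2 to 3 or 5 to 6 months without saying which of these ages was sequenced.

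A neuron of the forebrain switches on a small and largely random subset of the alternate isoforms, through methylation of their promoters and CTCF- and cohesin-dependent looping to shared enhancers. The C-type isoforms at the end of the Pcdha and Pcdhg clusters are driven more constitutively. The proteins bind like to like between cells, and the combination on a neuron lets its own branches recognise and avoid each other. Each Pcdha and Pcdhg gene splices its own variable exon to constant exons shared by the whole cluster, whereas Pcdhb genes have no constant exons. A hippocampus holds a very large number of neurons, so the values below are averages over many different choices, and in such bulk RNA fewer cells of a type and less RNA per cell cannot be told apart.

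Total counts lay between 18.3 M and 41.1 M per KO mouse, with a median of 28.2 M, and between 19.4 M and 32.1 M per WT mouse, with a median of 27.8 M. Timp2 had between 130 and 171 counts per M (CPM) in the KO mice and between 256 and 380 CPM in the WT mice, without overlap, a log2 fold change of -0.999 ± 0.05 (SE; adjusted p = 7.62e-16, edgeR's quasi-likelihood test, Benjamini-Hochberg adjusted). Markers of neurons were high in every mouse, with a mean log2 CPM of 8 genes between 9.13 and 9.33. Markers of the choroid plexus, a secretory tissue beside the hippocampus, had a mean log2 CPM between 2.51 and 6.01 in KO and between 1.87 and 3.74 in WT mice over the 5 of 9 genes tested. Of these 5 genes, 4 were higher and 0 lower in KO at an unadjusted p under 0.05 in edgeR's quasi-likelihood test. The highest value belonged to KO mouse 11. The contribution of choroid plexus RNA to the results for the protocadherins was not tested, and counts of changed members are also given without that mouse.

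Of the 57 members, 55 passed the filter on low counts and were tested, with 13 in Pcdha, 21 in Pcdhb and 21 in Pcdhg. The other 2 were Pcdhb1, with 0 to 22 counts per mouse, and Pcdha11 (ENSMUSG00000102206), with 0 to 19 counts per mouse. Levels were expressed per length by dividing CPM by the kilobases of exon that belong to no other gene on either strand, since reads on the shared constant exons cannot be assigned to 1 isoform. Pcdha4, with 404 such bases, and Pcdhga10, with 0, fell under the minimum of 500 bases and were not ranked. Whether the authors counted by strand is not given in the sources used here. Where the level per length of a ranked, named isoform moves when overlap on the opposite strand is allowed, both values are given. Medians and ratios of levels are given only with overlap on either strand removed, and some of them would move on the other scale.

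A C-type isoform had the highest level of each cluster that holds them, but not all 5 were high. In Pcdha, Pcdhac2, known for its role in the spacing of serotonergic axons, had the highest level per length at 13.3 ± 0.803 CPM per kb (SD, n = 30). Pcdha8, an alternate isoform, had the lowest of the ranked members at 0.249 ± 0.119 CPM per kb, 53.5 times less. This minimum depends on the filter on low counts, which removed Pcdha11 (ENSMUSG00000102206) with 0.246 CPM per kb. With only overlap on the same strand removed, that Pcdha11 had 0.0678 CPM per kb. Pcdhac1, the other C-type isoform, had 1.54 CPM per kb, below alternate isoforms such as Pcdha12 with 3.62 CPM per kb. With only overlap on the same strand removed, Pcdha12 had 2.85 CPM per kb. Pcdha8 had 5 to 36 counts per mouse, so its level is known with less certainty than that of Pcdhac2, which had 677 to 1548 counts.

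In Pcdhg, Pcdhgc3, which is known to promote the branching of dendrites, had 21.4 ± 1.56 CPM per kb and Pcdhgc5, which is linked to inhibitory synapses, had 20.4 ± 1.13 CPM per kb (SD, n = 30). These levels per length differed by less than the spread between mice. The order of this pair depends on how length is counted, because an antisense gene overlaps part of the Pcdhgc3 exon. With only overlap on the same strand removed, Pcdhgc3 had 11.5 CPM per kb and Pcdhgc5 was unchanged at 20.4 CPM per kb. Pcdhgc4 had 2.67 CPM per kb, below most of the alternate isoforms. The lowest ranked level of the cluster was that of Pcdhgb5 at 1.32 ± 0.241 CPM per kb, 16.2 times less than Pcdhgc3, while Pcdhga10, not ranked, had 0.417 CPM per kb with overlap on the same strand only.

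The Pcdhb cluster, which has no C-type isoform, was more even among the members tested. Pcdhb9 had the highest level at 7.18 ± 0.500 CPM per kb and Pcdhb21 the lowest level of the members tested at 0.806 ± 0.117 CPM per kb (SD, n = 30), a ratio of 8.91. This ratio depends on the filter on low counts, since Pcdhb1, which it removed, had 0.107 CPM per kb. The median levels per length were 1.60 CPM per kb in Pcdha, 1.67 in Pcdhb and 4.03 in Pcdhg. A typical Pcdhg isoform therefore had a higher level per length than a typical isoform of the other clusters.

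**Figure D1:**
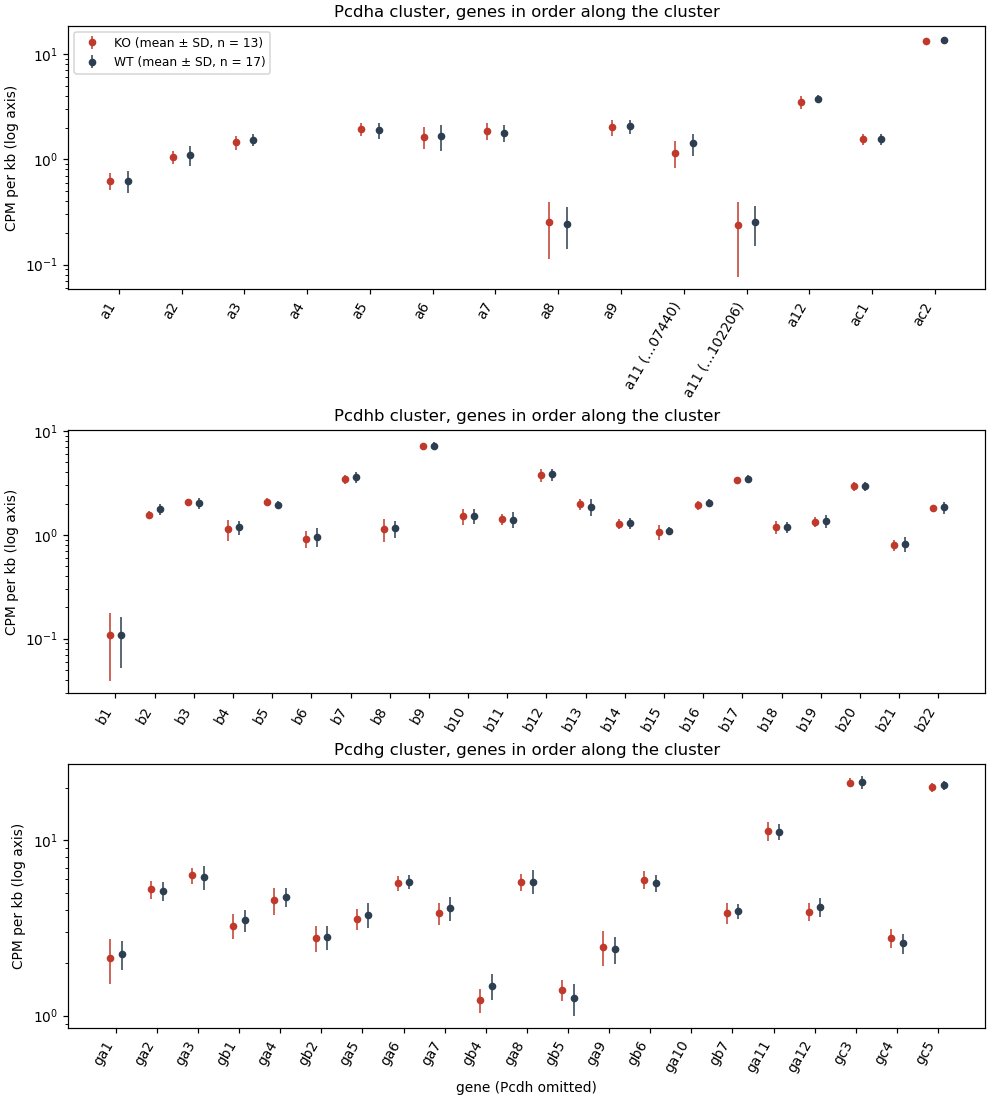
Level of each clustered protocadherin in CPM per kb of exon belonging to no other gene (log axis), with genes in their order along each cluster. Points and bars are the mean ± SD of 13 KO mice (red) and 17 WT mice (dark blue), Pcdha4 and Pcdhga10 have no ranked value, and the C-type isoforms ac2, gc3 and gc5 lie at the top of their clusters in both genotypes.

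The share of each isoform in the reads of its cluster gave the same view of an uneven Pcdha and an even Pcdhb cluster. Pcdhac2 alone took 49.8% ± 1.63 of the Pcdha reads (SD, n = 30), with a range of 45.9% to 52.6% over the mice. Pcdhac1 took 4.88% ± 0.538. In Pcdhg, Pcdhgc5 took 29.1% ± 0.868 and Pcdhgc3 12.1% ± 0.737 of the reads. Pcdhgc4, known to be needed for the survival of cortical interneurons, took 2.88% ± 0.387.

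Together the C-type isoforms made up 54.7% of the Pcdha reads and 44.1% of the Pcdhg reads. Per kilobase of exon of 1 gene these shares were 48.1% and 37.6%. The effective number of isoforms, which would equal the number of isoforms if all had the same share of reads, was 3.65 ± 0.200 in Pcdha, 15.6 ± 0.404 in Pcdhb and 8.25 ± 0.279 in Pcdhg (SD, n = 30). It was 3.63 ± 0.184 in KO (n = 13) and 3.67 ± 0.215 in WT mice (n = 17) for Pcdha, 15.7 ± 0.317 and 15.6 ± 0.466 for Pcdhb, and 8.31 ± 0.256 and 8.21 ± 0.294 for Pcdhg. The genotypes thus differed in this number by less than the spread between mice in every cluster.

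The comparison of TIMP2 KO with WT mice asks whether loss of TIMP2 moves the RNA of these recognition molecules. Few members were called, with small differences and at a share near that of all genes tested, and none passed adjustment. An unadjusted p under 0.05, the threshold the study uses for DEGs, was reached by 4 of 55 members, 3 lower and 1 higher in KO. This was 7.27% of the members tested, against 5.03% of all genes tested, with 2.56% lower and 2.47% higher in KO. With the edgeR p-values adjusted by Benjamini-Hochberg over all genes, 0 of 55 members stayed under 0.05, as with DESeq2, against 0.0546% of all genes tested.

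Pcdhgb4, an alternate Pcdhg isoform, had the smallest p of the members. Its level was between 3.44 and 5.63 CPM in KO mice, with a median of 4.37, and between 3.64 and 6.77 CPM in WT mice, with a median of 5.54. The ranges overlapped over most of their length, and the lower KO values gave a log2 fold change of -0.27 ± 0.08 (SE; unadjusted p = 0.00290, adjusted p = 0.770 in edgeR's quasi-likelihood test, Benjamini-Hochberg adjusted). It was -0.29 in males alone (unadjusted p = 0.0137) and -0.21 in females alone, where the unadjusted p was 0.0924 and the call was lost.

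Pcdhb2 was measured at 3.65 to 5.04 CPM in KO mice, with a median of 4.42, and at 3.72 to 6.14 CPM in WT mice, with a median of 4.88. No KO mouse reached the upper WT values, and the log2 fold change was -0.19 ± 0.06 (SE; unadjusted p = 0.00357, adjusted p = 0.827, same test). In females alone and in males alone its log2 fold change kept its sign, but in males alone it was -0.13 with an unadjusted p of 0.128 (edgeR's quasi-likelihood test).

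Pcdha11 (ENSMUSG00000007440), an alternate Pcdha isoform, had 1.65 to 3.92 CPM in KO mice, with a median of 3.08, and 1.47 to 4.91 CPM in WT mice, with a median of 3.65. The lowest and the highest mouse were both WT. Its log2 fold change of -0.28 ± 0.13 (SE; unadjusted p = 0.0437 in edgeR's quasi-likelihood test) was the largest of the members tested, and its spread between mice was among the widest, at a biological coefficient of variation of 23.1%. In females alone its log2 fold change was -0.38 (unadjusted p = 0.0230, same test), and in males alone it was -0.22 (unadjusted p = 0.249) and no longer called.

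Pcdhb5 was the member called higher in KO. It had 6.66 to 8.86 CPM in KO mice, with a median of 7.17, and 5.42 to 7.93 CPM in WT mice, with a median of 7.08. The medians were nearly equal, and the difference lay in the low WT mice and in the highest KO mice, with a log2 fold change of 0.11 ± 0.05 (SE; unadjusted p = 0.0384 in edgeR's quasi-likelihood test). Without KO mouse 11 the log2 fold change was 0.08 and the unadjusted p 0.103, so this call rested on that mouse.

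The abundant C-type isoforms were measured more precisely, and their levels in KO and WT mice overlapped almost fully. Pcdhgc5 had 85.7 to 103 CPM in KO mice, with a median of 91.8, and 84.0 to 104 CPM in WT mice, with a median of 96.5. Its log2 fold change was -0.04, with a 95% interval of -0.10 to 0.02. Pcdhac2 had medians of 39.8 CPM in KO and 40.3 CPM in WT mice, with an interval of -0.09 to 0.04 around a log2 fold change of -0.03.

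Pcdhgc3 had medians of 39.0 CPM in KO and 39.4 CPM in WT mice, and the interval of its log2 fold change was -0.09 to 0.07. Pcdhac1 had medians of 3.86 and 4.03 CPM, with an interval of -0.13 to 0.13. Pcdhgc4 was the C-type isoform with the largest difference, with medians of 9.50 CPM in KO and 8.89 CPM in WT mice and a log2 fold change of 0.10, whose interval of -0.03 to 0.23 included 0. None of these 5 isoforms had an unadjusted p under 0.05 in edgeR's quasi-likelihood test or in DESeq2, and with limma voom and sample weights Pcdhgc4 had one of 0.0474.

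Over all members tested, log2 fold changes lay between -0.28 and 0.16, the highest being that of Pcdhgb5. The 95% interval lay within a change of 1.25-fold in either direction for 51 of 55 members, which bounds the differences these data allow for most of the family. The median log2 fold change of the members was -0.03, and 40 of 55 (72.7%) were negative, where the median over all genes tested was 0.0001 and 49.8% were negative. By cluster, 10 of 13 members were negative in Pcdha, 17 of 21 in Pcdhb and 13 of 21 in Pcdhg. Members share their neighbourhood and libraries, so this count is a description.

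**Figure D2:**
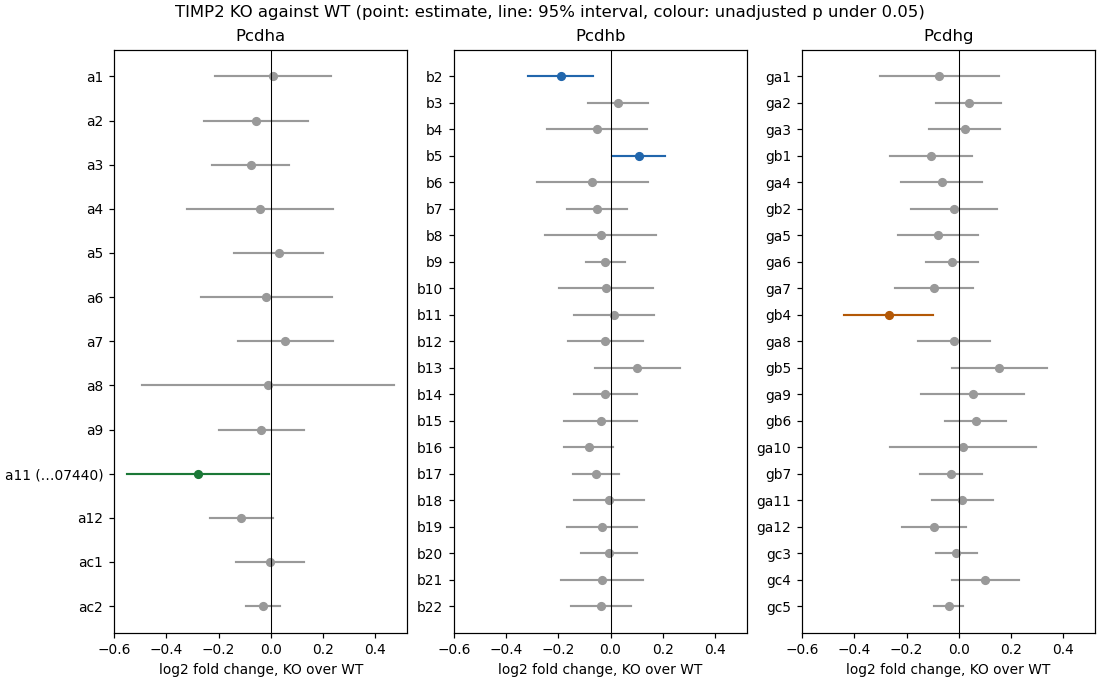
Log2 fold change of KO over WT for the 55 members tested, in cluster order, with 95% intervals from edgeR's quasi-likelihood fit. Coloured points are the 4 members with an unadjusted p under 0.05 (Pcdha11, Pcdhb2, Pcdhb5 and Pcdhgb4), grey points are the other members, and most intervals lie across 0.

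The summed level of each cluster was close to equal in KO and WT mice. The Pcdha sum was 79.6 ± 2.96 CPM in KO (SD, n = 13) and 81.8 ± 4.11 CPM in WT mice (SD, n = 17), or 97.2% of the WT level. The Pcdhb sum was 168 ± 6.24 and 170 ± 7.76 CPM, or 98.5% of the WT level. The Pcdhg sum was 320 ± 15.7 and 324 ± 15.9 CPM, or 98.5% of the WT level. Each difference was smaller than the SD between mice of a genotype.

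The median biological coefficient of variation of the members was 11.1%, with a range of 5.32% for Pcdhgc5 to 38.9% for Pcdha8. Over all genes tested, which were not matched to the members for level, the median was 6.97%. Pcdhac2 with 5.74%, Pcdhgc3 with 6.86% and Pcdhb9 with 6.13%, which with Pcdhgc5 had the most counts of the members, lay under that median. Counting error alone made up a median of 35.7% of the variance of log2 CPM in Pcdha, 34.4% in Pcdhb and 18.0% in Pcdhg, so correlations between members of the low Pcdha and Pcdhb clusters are limited by depth.

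A term for the interaction of sex with genotype was fitted to see whether the genotype difference itself differed between females and males. An unadjusted p under 0.05 was reached by 0 of 55 members in edgeR's quasi-likelihood test, against 2.57% of all genes tested. DESeq2, which tested 57 members, called 1, Pcdha11 (ENSMUSG00000102206), with 0 to 19 counts per mouse (unadjusted p = 0.0164). For this term DESeq2 called 315 of 33548 genes with a negative and 248 with a positive value, and 0 passed adjustment. Among the 55 members tested with edgeR, no difference between the sexes in the response to loss of TIMP2 was thus detected at this number of mice.

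A comparison of males with females, with genotype as a covariate, was added after the data were seen, because the Pcdhb sums of the mice lay apart by sex. Its counts in Pcdhb therefore describe a pattern already seen and are no independent support for it. It called more members than genotype did. An unadjusted p under 0.05 was reached by 14 of 55 members, 12 lower and 2 higher in males. This was 25.5% of the members, against 9.77% of all genes tested, of which 5.14% were lower and 4.63% higher in males. In Pcdhb, 7 of 21 members were called lower and 0 higher in males. In Pcdhg 4 of 21 were lower and 1 was higher, and in Pcdha 1 of 13 was lower and 1 was higher.

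Pcdhb10 was the member that passed adjustment, against 0.218% of all genes tested. Its level was between 3.59 and 5.81 CPM in the 14 females, with a median of 4.89, and between 3.12 and 4.78 CPM in the 16 males, with a median of 3.95. The sexes overlapped, with 7 females above every male and 5 males below every female. The log2 fold change of males over females was -0.34 ± 0.07 (SE; adjusted p = 0.0209, edgeR's quasi-likelihood test, Benjamini-Hochberg adjusted).

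The lower level of Pcdhb10 in males was seen in both genotypes. In WT mice the median was 4.74 CPM in females and 3.98 CPM in males, and in KO mice it was 5.04 and 3.83 CPM. Its log2 fold change was -0.31 in WT mice alone and -0.37 in KO mice alone, with unadjusted p of 0.00208 and 0.00389 in edgeR's quasi-likelihood test. With each of the 30 mice left out in turn, its adjusted p stayed between 0.00302 and 0.0428. Pcdhb10 was picked for its p in these same mice, so these fits describe its values and are no independent support.

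Pcdhb6 had 3.08 to 4.87 CPM in females, with a median of 3.97, and 1.91 to 4.06 CPM in males, with a median of 3.23. The log2 fold change was -0.36 ± 0.09 (SE; adjusted p = 0.0713, edgeR's quasi-likelihood test, Benjamini-Hochberg adjusted), over the threshold of 0.05, whereas DESeq2 gave an adjusted p of 0.0122. An unadjusted p under 0.05 was reached in each genotype alone. The Pcdhb members called beside these were Pcdhb2, Pcdhb3, Pcdhb8, Pcdhb9 and Pcdhb14, with log2 fold changes of -0.09 (Pcdhb9) to -0.28 (Pcdhb8). Pcdhb2 was also called for genotype.

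Among the other clusters, Pcdha8 had 0.209 to 1.21 CPM in females, with a median of 0.844, and 0.183 to 0.781 CPM in males, with a median of 0.491. Its log2 fold change of -0.83 ± 0.20 (SE; adjusted p = 0.0713, same test) was the largest of the 55 members tested, but rests on 5 to 36 counts per mouse. Pcdhb1, which the filter removed, had 4 to 22 counts in females and 0 to 11 in males, or 0.395 ± 0.117 CPM in females (SD, n = 14) and 0.175 ± 0.104 CPM in males (SD, n = 16). DESeq2, which tested it, gave a log2 fold change of -1.18 with an unadjusted p of 4.70e-06 and no adjusted p. Pcdhga9 had 6.65 to 11.9 CPM in females, with a median of 9.29, and 5.28 to 10.1 CPM in males, with a median of 7.75, a log2 fold change of -0.30. Pcdhga5, Pcdhgb5 and Pcdhga11 were also called lower, with log2 fold changes of -0.12 to -0.19.

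The 2 members called higher in males were Pcdhga1 and Pcdha9. Pcdhga1 had 3.39 to 8.00 CPM in females, with a median of 5.30, and 4.98 to 9.01 CPM in males, with a median of 6.53, a log2 fold change of 0.29. Pcdha9 had a median of 4.73 CPM in females and 5.15 CPM in males, a log2 fold change of 0.20. Calls higher in males were thus 2 of 55 members, against 4.63% of all genes tested, and neither passed adjustment. They do not establish a second direction of the sex difference in the family. The members were chosen in the pooled mice, so the same sign in WT mice alone and in KO mice alone is no support. An unadjusted p under 0.05 in both genotypes was reached by 4 of the 14, namely Pcdha8, Pcdhb6, Pcdhb10 and Pcdhga9.

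None of the C-type isoforms was called for sex in edgeR's quasi-likelihood test, although Pcdhac2, with a log2 fold change of 0.06 and an unadjusted p of 0.0503, was close to the threshold. It was called higher in males by DESeq2 (unadjusted p = 0.0447) and in KO mice alone. The Pcdhb sum was 174 ± 6.97 CPM in females (SD, n = 14) and 165 ± 4.64 CPM in males (SD, n = 16), 95.2% of the female level, and 9 of 14 females lay above every male. It was 94.3% of the female level in WT mice and 95.7% in KO mice. The Pcdhg sum was 98.3% and the Pcdha sum 102% of the female level in males. The difference in the Pcdhb sum was thus larger than the SD within either sex, and those of the Pcdha and Pcdhg sums were smaller.

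Markers of other cells also moved with sex. In males, 3 of 6 astrocyte markers were lower and 0 higher at an unadjusted p under 0.05 in edgeR's quasi-likelihood test. Of 4 markers of excitatory neurons 2 were higher and 0 lower, and of 5 markers of meningeal fibroblasts 2 were lower and 0 higher. Over all genes tested, 5.14% were lower and 4.63% higher in males. These lists had the most calls of the cell-type lists. The neuron, interneuron and endothelial lists each had 1 gene higher and 0 lower. The microglia list had 1 lower and 0 higher, and the oligodendrocyte and choroid plexus lists had 0 called. The mean log2 CPM of the astrocyte list lay between 7.25 and 7.46 in females and between 7.19 and 7.38 in males. That of the excitatory list lay between 9.34 and 9.62 in females and between 9.38 and 9.63 in males, and that of the fibroblast list between 2.22 and 3.01 and between 1.42 and 2.80. Their part in the sex difference of the Pcdhb members was not tested.

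**Figure D3:**
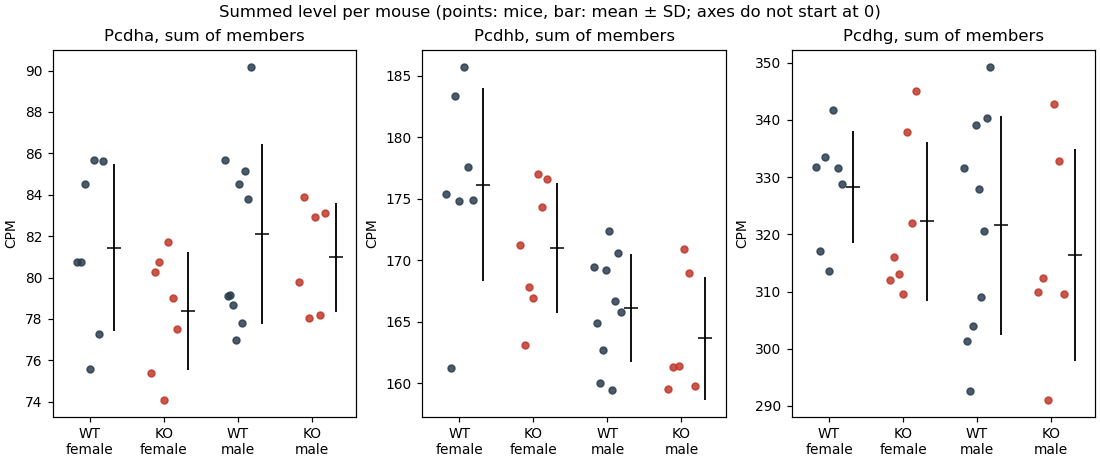
Summed level in CPM of the Pcdha, Pcdhb and Pcdhg members in each mouse, by genotype and sex (points are mice, black bars the mean ± SD, axes not starting at 0). In Pcdhb 9 of the 14 females lie above every male, the lowest female being a WT mouse at 161 CPM, while KO and WT mice of a sex overlap in each cluster.

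**Figure D4:**
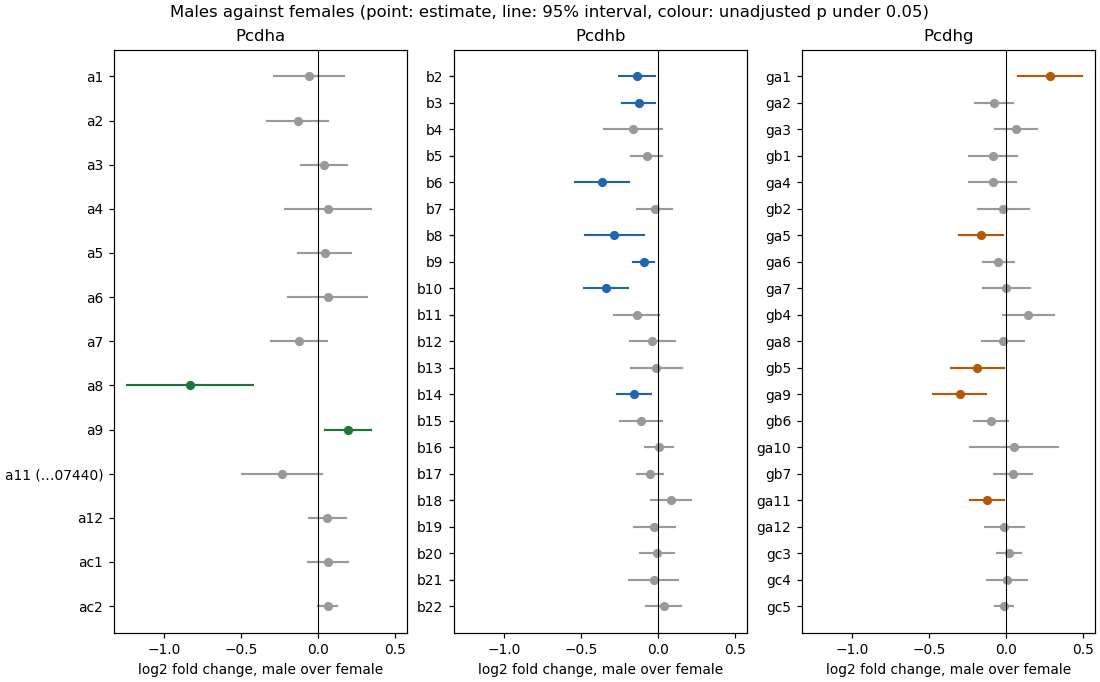
Log2 fold change of males over females for the 55 members tested, with genotype as a covariate and 95% intervals from edgeR's quasi-likelihood fit. Coloured points are the 14 members with an unadjusted p under 0.05, of which 7 are in Pcdhb and all of those lie below 0.

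Covariation between mice was described by the Pearson correlation of log2 CPM over the 30 mice after the mean of each genotype was removed. Pairs of members share libraries and, within a cluster, enhancers, and pairs within Pcdha or within Pcdhg also share constant exons, so no p is given. The median r over all 1485 pairs was 0.077, and 63.8% of the pairs were positive. Over all pairs of the 12927 genes tested in the members' range of level it was 0.0002.

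Members of Pcdhg covaried the most. The median r was 0.145 over the 210 pairs within Pcdhg, 0.086 over the 210 pairs within Pcdhb and -0.001 over the 78 pairs within Pcdha. Between clusters it was 0.093 for Pcdhb with Pcdhg (441 pairs), 0.049 for Pcdha with Pcdhg (273 pairs) and 0.024 for Pcdha with Pcdhb (273 pairs). With the mean of each sex also removed, the median was 0.043 within Pcdhb, 0.137 within Pcdhg and 0.080 between Pcdhb and Pcdhg, so the value within Pcdhb moved most. All of these medians are small beside the spread of r over the pairs, whose SD was 0.196.

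The highest correlation was that of Pcdhgb6 with Pcdhgc5, an alternate and a C-type isoform of Pcdhg (r = 0.722, Spearman's rho = 0.640). Pcdhb2 and its next neighbour Pcdhb3 followed (r = 0.705, rho = 0.718), and then Pcdhgb5 and its next neighbour Pcdhga9 (r = 0.644, rho = 0.505). Both members of the last 2 pairs were also lower in males. The lowest correlation was that of Pcdhb13 with Pcdhb20 (r = -0.655, rho = -0.602), so that mice with more of one had less of the other. These are the ends of 1485 values and were chosen for their size.

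The median r was also set against place along the cluster. The median r of genes next to each other was 0.109 in Pcdha (11 pairs) and 0.171 in Pcdhb (20 pairs), against -0.0004 (31 pairs) and 0.039 (120 pairs) for genes more than 5 places apart. At 2 to 5 places it was -0.031 in Pcdha (36 pairs) and 0.117 in Pcdhb (70 pairs), so the values fell step by step with distance in Pcdhb and not in Pcdha. In Pcdhg they were 0.116 (19 pairs) for neighbours, 0.134 (67 pairs) at 2 to 5 places and 0.151 (124 pairs) beyond.

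**Figure D5:**
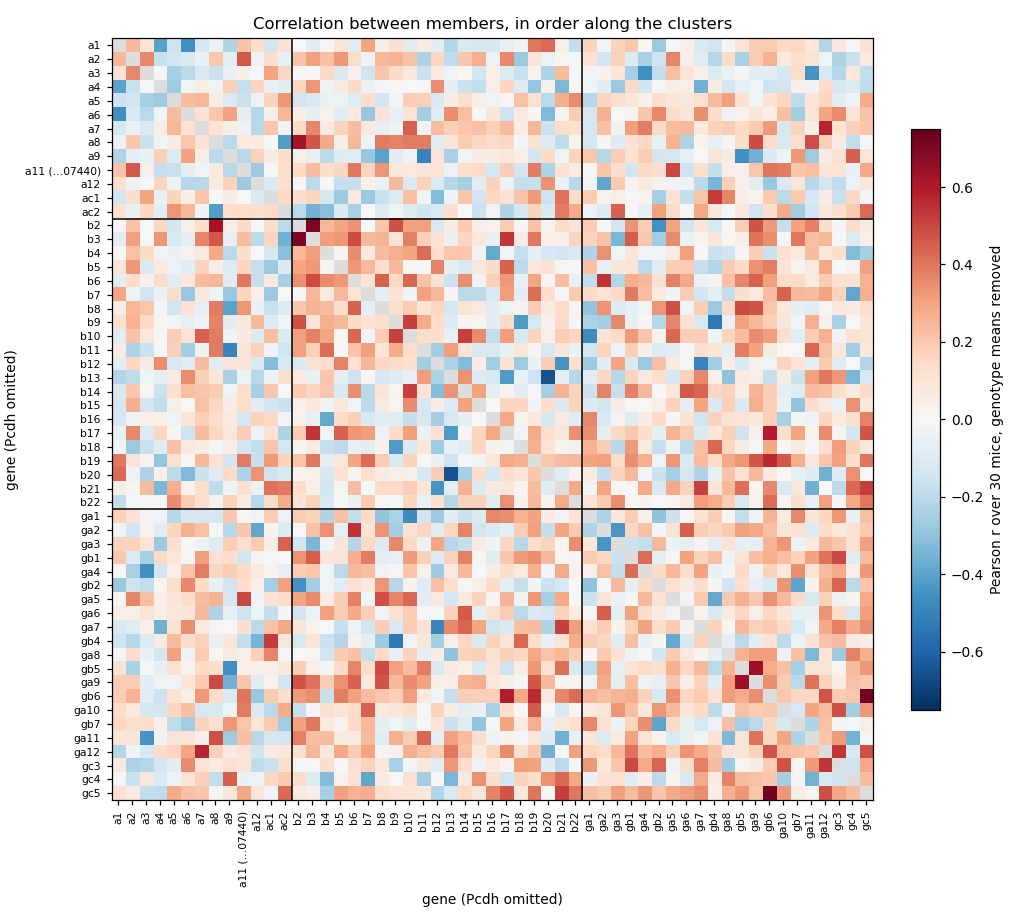
Pearson r of log2 CPM between the 55 members tested over 30 mice, genotype means removed, in order along the clusters, with black lines between clusters and a grey diagonal. Red is positive and blue negative, the Pcdhg block is the reddest with a median of 0.145, and the Pcdha block is balanced between both colours with a median of -0.001.

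On the scale of whole clusters, the Pcdhb and Pcdhg sums moved together over the mice (r = 0.659, rho = 0.654, and r = 0.652 without the 2 mice farthest from the median Pcdhb sum). This r was 0.749 in KO and 0.609 in WT mice, and 0.694 with sex removed. The Pcdha sum correlated with the Pcdhg sum at r = 0.427 (rho = 0.431, and 0.331 without 2 mice) and with the Pcdhb sum at r = 0.089 (rho = 0.096, and 0.212 without 2 mice). With sex removed, the Pcdha sum correlated at r = 0.495 with the Pcdhg sum and at r = 0.296 with the Pcdhb sum. For Pcdha with Pcdhb, r was -0.249 in KO and 0.244 in WT mice. The sum of the alternate Pcdha isoforms alone correlated with the Pcdhb sum at r = 0.376. The weaker link of the whole Pcdha sum with Pcdhb thus varied with sex, genotype and the isoforms summed.

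Within Pcdhg, the sum of the alternate isoforms correlated with that of the C-type isoforms at r = 0.764 (rho = 0.838). In Pcdha the same pair of sums gave r = 0.322 (rho = 0.372). The Pcdha sum also moved with the neuron markers (r = 0.511, rho = 0.522) and the markers of excitatory neurons (r = 0.407, rho = 0.362). It moved against the astrocyte markers (r = -0.442, rho = -0.352) and the endothelial markers (r = -0.441, rho = -0.503). The Pcdhb sum moved against the choroid plexus markers (r = -0.423) and the interneuron markers (r = -0.398), and with the astrocyte markers (r = 0.397). The Pcdhg sum moved with the markers of excitatory neurons (r = 0.414). These values were chosen for their size among the correlations of the 3 cluster sums with the marker lists, with genotype means removed. With sex also removed, r of the Pcdhb sum was -0.443 with the choroid plexus, -0.366 with the interneuron and 0.187 with the astrocyte markers. It was then 0.464 with the excitatory markers and -0.464 with the meningeal fibroblast markers, against 0.236 and -0.123 before. Correlations with log2 total counts per mouse were between -0.105 and -0.073 for the 3 sums. The part of cell composition in the covariation of the clusters was not tested.

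Genes that act with the clustered protocadherins were followed in 3 lists, chosen by function. Of 51 genes tested, 4 (7.84%) had an unadjusted p under 0.05 in edgeR's quasi-likelihood test, against 5.03% of all genes tested. All 4 were lower in KO, against 2.56% of all genes, and 0 passed adjustment. Among 22 genes of promoter choice and chromatin, these were Stag2, a subunit of cohesin, with a log2 fold change of -0.04 ± 0.02 (SE), and Smchd1, which silences the protocadherin clusters, with -0.06 ± 0.03. Smchd1 was at the threshold, with an unadjusted p of 0.0494 that became 0.0522 with sex as a covariate. Ctcf, which loops the promoters to their enhancers, had a log2 fold change of -0.005, well within its SE of 0.02.

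Among 18 signalling partners, Marcks, a membrane protein through which Pcdhg proteins act on dendrites, was the gene called, with a log2 fold change of -0.07 ± 0.03 (SE). Among 11 protocadherins outside the clusters, it was Pcdh17, which acts at synapses and on axons, with 105 to 125 CPM in KO mice, a median of 117, and 113 to 134 CPM in WT mice, a median of 122. Its log2 fold change was -0.08 ± 0.03 (SE; unadjusted p = 0.00873, adjusted p = 0.882 in the quasi-likelihood test of edgeR, Benjamini-Hochberg adjusted). All 4 differences were of a few percent, and the ranges of KO and WT mice overlapped for each gene.

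For sex, 4 of the 51 genes were lower and 3 higher in males at an unadjusted p under 0.05, which is 13.7% of them against 9.77% of all genes tested. Of the 22 genes of promoter choice and chromatin, 0 were among them in edgeR's quasi-likelihood test.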

How the data were processed

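Poly(A)-selected, paired-end libraries of 30 hippocampi were trimmed (Trimmomatic 0.36) and aligned to GRCm38 (STAR 2.5.2b), and reads per gene were counted (featureCounts of Subread 1.5.2), per the submitters' processing notes and the study's methods. The authors deposited raw counts, without normalization. The strand setting and the treatment of reads on several genes are not given in the sources used here. All 30 columns were matched to a mouse by title. Symbols and exons came from GENCODE M21 on the same build, in which 259 of the identifiers have no entry.

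Counts were normalized by TMM, filtered by filterByExpr (16486 genes kept) and tested by the quasi-likelihood method of edgeR 4.0.16 (R 4.3.3), with both sexes pooled and no covariate, since the study states none for this comparison, and adjusted by Benjamini-Hochberg over all genes tested. The test was tested on simulated data. CPM used TMM-scaled library sizes, and log2 CPM a prior count of 2. Python 3.11.15 and numpy 2.4.6 gave correlations, sums and shares. The members, lists and tests were chosen with earlier results of these data known.

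The named members are those with an unadjusted p under 0.05, the highest and lowest level per length and the largest absolute log2 fold change in each cluster, the C-type isoforms, and the 3 highest and the lowest correlated pair. In the pathway lists, genes with an unadjusted p under 0.05 are named, and Ctcf was chosen after its value was seen. The comparison of males with females was added after the data were seen, and the rule was extended to it. Alternatives were DESeq2 1.42.0, RLE factors, other filters, a sex covariate, each sex alone, limma 3.58.1 voom with sample weights and leaving out mice. Depth limits the low members, and p-values set the differences between groups against the spread between mice. For its co-expression networks the study corrected expression for isolation or harvest date, which it names as a batch effect. These dates are not in the labels and were not fitted, so their part in the covariation and the sex differences was not tested. No sequence of a member is printed.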

Additional observations from a re-analysis of the deposited data

Results flagged for a closer look

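The values of the 26 members examined and of the 3 cluster sums were compared among mice of the same sex and genotype, in 116 groups of values. In 10 of these, 1 mouse lay far from the others by Dixon's criterion, where chance gives about 1 in 20, or 5.8. All values here are log2 CPM.

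In WT male mouse 12, Pcdha11 (ENSMUSG00000007440) was at 0.556, with the other mice at 1.39 to 2.13. Pcdha8 was at -2.257 in KO female mouse 5 (others -0.70 to 0.27) and at -1.959 in WT female mouse 28 (others -0.73 to 0.03). In WT female mouse 9, Pcdhb3 was at 2.600 (others 2.99 to 3.18) and the Pcdhb cluster sum at 7.333 (others 7.45 to 7.54). Without that mouse the Pcdhb sum of males was 94.6% of that of females. Pcdhb9 was at 4.655 in WT male mouse 2 (others 4.26 to 4.47).

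In WT male mouse 6, Pcdhga11 was at 3.328 (others 3.68 to 3.89) and Pcdhgc3 at 4.894 (others 5.22 to 5.46). Pcdhgb4 was at 1.862 in WT male mouse 26 (others 2.31 to 2.76), a low value in the group in which this member was higher. Pcdhgc3 was at 5.069 in KO male mouse 14 (others 5.28 to 5.36).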

How the results depend on the processing

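The KO against WT counts of members called, 3 lower and 1 higher, became 2 lower in females alone and 1 lower in males alone, and 0 higher with sex as a covariate, in females alone, in males alone and without KO replicate 11, and 3 higher with limma voom and sample weights. The number that passed adjustment was 0 under every alternative run. Among single members, signs of values near 0 turned for Pcdha8 (0.0145 with DESeq2, 0.0739 in females alone), Pcdhac1 (0.000400 without a filter, 0.00511 with sex as a covariate, 0.00899 in females, 0.00109 in males, 0.0218 without KO replicate 11), Pcdhac2 (0.0124 in males), Pcdhb20 (0.0537 in females, 0.0143 with voom, 0.000211 without KO replicate 11), Pcdhb21 (0.0349 in males), Pcdhb3 (-0.0396 in females), Pcdhb9 (0.000599 in males), Pcdhga9 (-0.0249 in males) and Pcdhgc3 (0.0150 in females). The interaction gave 1 member with DESeq2, Pcdha11 (ENSMUSG00000102206), which the filter had removed from the main fit. Cluster sums moved by less than the SD between mice, and Timp2 kept its call. The pathway lists gave 5 genes lower with DESeq2 (Wasf3 added) and with sex as a covariate (Wasf3 and Pcdh19 added, Smchd1 lost). Over the alternatives, the median r ranged from 0.040 to 0.097 within Pcdhb, from 0.120 to 0.151 within Pcdhg, from -0.060 to 0.054 within Pcdha and from -0.023 (members with a mean of at least 100 counts) to 0.055 for Pcdha with Pcdhb. C-type shares per kilobase were 48.1% and 37.6%, and 50.1% and 34.8% with overlap on the same strand only. For males against females, 7 members were lower in KO mice alone, of them 3 in Pcdhb, 0 higher in WT mice alone, and 0 passed adjustment in either genotype alone and 2 with DESeq2. Leaving out each mouse in turn gave 6 to 9 Pcdhb members lower, and Pcdhga11 was no longer called without KO replicate 11. Fewer mice were tested in the single-sex and single-genotype fits, and the cause of the other changes was not tested. No paired analysis was possible because no replicate number is shared by KO and WT mice.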
